A study of Mus musculus with 10 samples.

Results

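The 40 genes described here drive the cell division cycle and the copying of DNA. They were given as a list of symbols, and all 40 were matched by symbol to Ensembl identifiers among the 46078 genes counted. They fall into 12 replication genes, 3 genes of entry into DNA synthesis (G1/S entry) and 25 mitosis genes. Their levels were measured by RNA sequencing of whole back skin from C57BL/6 mice kept free of specific pathogens. The SA group (5 libraries) carried Staphylococcus aureus SF8300 and the SE group (5 libraries) carried Staphylococcus epidermidis Tü3298. In both groups 100 µl of bacteria was put on the skin every other day from day 3 to day 19 of life, and an 8 mm punch of lightly defatted back skin was taken at day 21. Each comparison is between the 2 colonised groups, and uncolonised skin was not analysed here. Whether every library is a different mouse is not stated in the labels, so the p-values speak only of the spread among these libraries.

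Cells that divide switch these genes on in turn. E2F1 and cyclin E start DNA synthesis, CDC6 and CDT1 load the MCM helicase onto replication origins, and thymidylate synthase and ribonucleotide reductase supply the building blocks of DNA. Later, FOXM1 and the MYB complex act on mitotic genes, cyclin B with CDK1 brings the cell into mitosis, and the CDC20 form of the anaphase-promoting complex ends it. In skin, dividing cells lie mainly in the basal epidermis, the sebaceous gland and the matrix of growing hair follicles, with smaller numbers among dermal and immune cells.

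Promoters of many of these genes carry known short motifs. Shown as examples are 6 promoters that hold such motifs, from mitosis genes (the first 4) and replication genes (the last 2). Each run is the 180 bases before the RefSeq start on GRCm38.p6, 5′ to 3′. Capitals mark the cell cycle homology region (CHR, TTTGAA or TTCGAA) and the CCAAT box (CCAAT) on either strand in the first 4, and E2F motifs (TTTCCCGC, TTTCGCGC, TTTGCCGC or TTTGGCGC, either strand) in the last 2. The last 2 hold CCAAT boxes as well, which are left in lower case. Cdc20 lies at chr4:118437344-118437523, minus strand, Kif11 at chr19:37376202-37376381, plus strand, Mki67 at chr7:135716380-135716559, minus strand, Top2a at chr11:99024190-99024369, minus strand, Mcm6 at chr1:128359706-128359885, minus strand, and Mcm5 at chr8:75109329-75109508, plus strand.
Cdc20: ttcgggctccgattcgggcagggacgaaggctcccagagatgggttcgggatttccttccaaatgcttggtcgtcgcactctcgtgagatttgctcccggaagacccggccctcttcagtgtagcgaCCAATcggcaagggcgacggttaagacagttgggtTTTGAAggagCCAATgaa
Kif11: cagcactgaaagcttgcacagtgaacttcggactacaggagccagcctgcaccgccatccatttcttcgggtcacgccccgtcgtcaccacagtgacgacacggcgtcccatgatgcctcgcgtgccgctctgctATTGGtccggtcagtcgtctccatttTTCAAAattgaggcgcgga
Mki67: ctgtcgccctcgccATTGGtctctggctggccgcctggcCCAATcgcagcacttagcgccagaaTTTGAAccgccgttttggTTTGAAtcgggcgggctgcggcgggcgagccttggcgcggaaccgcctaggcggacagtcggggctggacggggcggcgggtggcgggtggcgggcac
Top2a: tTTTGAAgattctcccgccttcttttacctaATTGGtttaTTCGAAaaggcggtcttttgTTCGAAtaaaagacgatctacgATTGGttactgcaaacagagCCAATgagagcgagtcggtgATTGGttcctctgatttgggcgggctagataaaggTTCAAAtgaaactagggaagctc
Mcm6: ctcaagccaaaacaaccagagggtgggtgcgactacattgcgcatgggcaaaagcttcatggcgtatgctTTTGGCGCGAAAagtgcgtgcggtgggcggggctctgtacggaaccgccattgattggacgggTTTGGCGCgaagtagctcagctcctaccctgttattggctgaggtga
Mcm5: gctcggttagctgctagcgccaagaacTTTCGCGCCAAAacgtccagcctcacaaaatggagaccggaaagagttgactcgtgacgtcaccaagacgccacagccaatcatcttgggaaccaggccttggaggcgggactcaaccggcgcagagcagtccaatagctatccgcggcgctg

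In RefSeq windows from 250 bases before to 50 after the start, 33 of the 40 genes had an entry, and Mcm4, Ccne2, Ccna2, Foxm1, Aurkb, Tpx2 and Kif20a had none. The CHR letters were found in 15 of 20 mitosis promoters (75.0%), in 2 of 11 replication promoters and in neither of the 2 G1/S entry promoters. They were found in 21.7% of all 27025 genes with a window and in 16.9% of the 11935 that were tested here for expression. All 15 mitosis promoters with CHR letters also held a CCAAT box, a combination found in 7.02% of the tested genes. The CCAAT box by itself was not particular to mitosis genes. It was found in 17 of 20 mitosis promoters (85.0%), in 8 of 11 replication promoters (72.7%) and in 42.0% of the tested genes. E2F letters were found in 6 of 11 replication promoters and in 1 of 20 mitosis promoters, that of Cdk1, against 4.27% of the tested genes. In Mcm6 and in Mcm5, motifs on opposite strands overlap, and each TTCGAA reads the same on both strands. A match of letters is a description of the sequence and not a measured binding site.

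Gene-assigned reads ranged from 21140654 to 25417851 per library, and a listed gene had at least 66 reads (Ccne1) in any library. On the leading principal component of all genes, with 45.2% of the variance, SE 3, 4 and 5 lay at 37.9 to 54.3 and the other 7 libraries below 0. The 3 libraries are therefore shown apart below, and fold changes are given also without them, as an alternative chosen with earlier results of these data known. That leaves 5 SA against 2 SE libraries, so its estimates rest on little SE skin. Levels are given as CPM, read counts scaled to a common library size.

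All 40 genes had a higher mean level in SA than in SE skin, but none passed the test. With edgeR's quasi-likelihood test and Benjamini-Hochberg adjustment over the 16909 genes tested, 0 of 40 had an adjusted p under 0.05, against 0.0769% of all genes (0.0591% higher in SA). At an unadjusted p under 0.05 there was 1 of 40, Ttk, against 11.1% of all genes (4.54% higher in SA). DESeq2 called 0 of 40, against 1.77% of all genes, with 5 at an unadjusted p under 0.05, against 8.11%. With limma voom 0 of 40 were called, against 0.071%, and 9 had an unadjusted p under 0.05, against 10.2%. The log2 fold changes, SA minus SE, ranged from 0.09 to 0.61 with a median of 0.39, while the median over all genes tested was -0.01 and 48.3% of all genes were positive. The SA and SE ranges overlapped for all 40 genes, where 2.05% of all genes had ranges that did not overlap. The direction of these differences rested on 3 libraries, SE 3, 4 and 5, which were the lowest for 39 of the 40 genes. Leaving them out therefore had to lower the fold changes of these genes. The SE skin left is SE 1 and SE 2, and SE 2 was among the 2 highest libraries for 37 of the 40 genes. The genes also vary together, so the following count of signs is a description and was not tested. Without SE 3, 4 and 5 the median was -0.19, 39 of the 40 fold changes were negative, and Ttk alone was positive, where 49.6% of all genes were positive. Without them 0 of 40 were called and 3 had an unadjusted p under 0.05 (Ccnb1, Mcm3 and Pcna, each lower in SA), against 0.233% and 9.42% of all genes. With SE 1 left out, 0 of 40 were called (1.32% of all genes) and 8 had an unadjusted p under 0.05 (7.59% of all genes, higher in SA). With SE 2 left out, 1 was called (0.888% of all genes) and 31 had an unadjusted p under 0.05 (8.77% of all genes, higher in SA). In whole skin, fewer dividing cells and less RNA per dividing cell cannot be told apart.

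**Figure D1:**
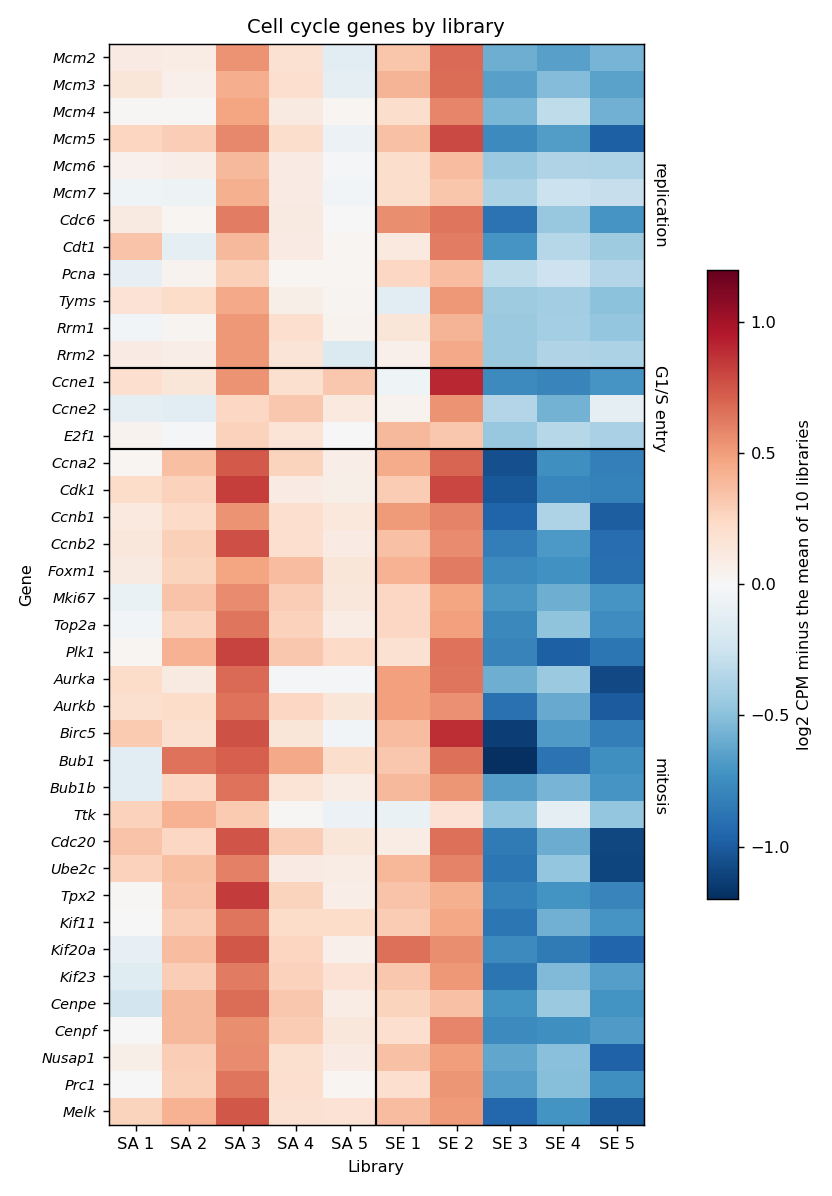
Level of each of the 40 genes in each library, as log2 CPM minus the mean of the 10 libraries (colour scale, red above and blue below the mean). Rows are genes in 3 role groups and columns are libraries; SE 3, 4 and 5 are blue in every row, with Ccne2 in SE 5 and Ttk in SE 4 the palest, and SA 3 and SE 2 are the deepest red columns.

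SE 3, 4 and 5 had the 3 lowest levels of 39 of the 40 genes. The exception was Ccne2, for which SE 5 and SA 2 lay side by side at 10.4 and 10.3 CPM. Such a separation was found for 11.3% of all genes tested, and the opposite one, with these 3 libraries highest, for 13.8%. As these libraries were singled out on all genes, the listed ones included, the count is a description and was not tested. At the other end, SA 3 and SE 2 held the 2 highest levels of 35 genes. SA 3 was highest for 24 genes and SE 2 for 14, and SE 1 (E2f1) and SA 2 (Ttk) for 1 each. The highest and the lowest library differed by a median of 2.84-fold over the 40 genes and by 1.61-fold over all genes tested.

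Among the replication genes, the 6 subunits of the MCM2-7 helicase, which opens DNA at the fork, all had SE 3, 4 and 5 as their lowest libraries. Mcm2 was measured at 39.3, 39.0, 53.1, 41.6 and 33.6 CPM in SA 1 to 5, at 46.0 and 58.8 CPM in SE 1 and 2, and at 24.4, 23.3 and 24.8 CPM in SE 3, 4 and 5. SE skin thus held both the highest level and the 3 lowest, and the SA libraries lay between. The log2 fold change was 0.22 ± 0.253 (± is the standard error beside log2 fold changes; edgeR adjusted p = 0.757) and -0.33 ± 0.156 without SE 3, 4 and 5. Mcm5 spread the most of the 6, 3.41-fold from lowest to highest library. Its levels were 45.2, 46.3, 56.2, 43.7 and 36.1 CPM in SA 1 to 5, 48.1 and 65.6 CPM in SE 1 and 2, and 22.3, 23.8 and 19.2 CPM in SE 3, 4 and 5 (log2 fold change 0.35 ± 0.305, edgeR adjusted p = 0.679). Mcm6 was at 71.6, 72.9, 90.7, 73.9 and 68.1 CPM in SA, at 79.8 and 89.6 CPM in SE 1 and 2, and at 50.6, 53.8 and 53.6 CPM in SE 3, 4 and 5 (0.20 ± 0.161, edgeR adjusted p = 0.643). Without these 3 libraries Mcm5 was at -0.31 ± 0.155 and Mcm6 at -0.16 ± 0.111. Mcm3, Mcm4 and Mcm7 had log2 fold changes of 0.19, 0.19 and 0.13, and of -0.38, -0.27 and -0.18 without SE 3, 4 and 5. Of the exonic bases of Mcm7, 8.7% overlap a gene read in the other direction, and no source used here gives the strand setting of the counting.

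The loading factors were far less abundant in reads. Cdc6, which brings MCM to the origin, ranged from 6.71 to 10.3 CPM in SA and from 3.65 to 10.5 CPM in SE, and Cdt1, its partner in loading, from 10.7 to 15.2 CPM and from 7.08 to 17.7 CPM. Their log2 fold changes were 0.21 ± 0.295 and 0.23 ± 0.223 (edgeR adjusted p = 0.795 and 0.709). Cdc6 had the most negative value of the 40 genes without SE 3, 4 and 5, at -0.40 ± 0.183 (edgeR adjusted p = 0.53).

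Pcna, the sliding clamp of DNA polymerase that also serves in DNA repair, varied least. It was at 63.8, 70.3, 83.2, 69.2 and 69.3 CPM in SA, at 80.8 and 88.1 CPM in SE 1 and 2, and at 55.2, 57.5 and 53.5 CPM in SE 3, 4 and 5. The 10 libraries spanned 1.65-fold, and the log2 fold change of 0.09 ± 0.144 was the smallest of the 40 (edgeR adjusted p = 0.835). Tyms, which makes thymidylate, was at 28.3, 29.3, 34.5, 26.5 and 25.7 CPM in SA, at 22.9 and 36.1 CPM in SE 1 and 2, and at 18.7, 18.9 and 17.9 CPM in SE 3, 4 and 5. Here only SE 2 lay above the SA range among the SE libraries, with SE 1 below it. Tyms had a log2 fold change of 0.33 ± 0.182 (edgeR adjusted p = 0.515), and it was the one gene called in any fit that left out a single library. Without SE 2 it rose by 0.56 ± 0.109 (edgeR adjusted p = 0.0466, 1 of 40 against 0.888% of all genes), and without SE 3, 4 and 5 it was at -0.03 ± 0.165.

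Ribonucleotide reductase, which makes the DNA precursors, is formed by RRM1 and RRM2. Rrm2 was at 34.4, 33.8, 46.1, 35.6 and 28.4 CPM in SA, at 33.4 and 43.9 CPM in SE 1 and 2, and at 23.5, 25 and 24.7 CPM in SE 3, 4 and 5 (log2 fold change 0.24 ± 0.179, edgeR adjusted p = 0.619). Rrm1 was at 78.6, 82.3, 116, 92.5 and 83.0 CPM in SA, at 89.4 and 107 CPM in SE 1 and 2, and at 59.4, 60.6 and 58.6 CPM in SE 3, 4 and 5 (0.27 ± 0.18, edgeR adjusted p = 0.585). SA 3 was highest for both subunits. Both stood at -0.11 without SE 3, 4 and 5.

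The 3 genes of entry into DNA synthesis differed among themselves. Ccne1, encoding cyclin E1, was at 6.00, 5.76, 7.58, 5.96 and 6.51 CPM in SA, at 5.04 and 9.76 CPM in SE 1 and 2, and at 3.07, 3.02 and 3.20 CPM in SE 3, 4 and 5 (log2 fold change 0.40 ± 0.304, edgeR adjusted p = 0.632). It spanned 3.23-fold over the libraries, as widely as many mitosis genes, and SE 1 lay below all SA libraries. Ccne2, encoding cyclin E2, spanned 2.15-fold, at 10.4, 10.3, 13.4, 14.1 and 12.2 CPM in SA, 11.6 and 16.3 CPM in SE 1 and 2, and 8.81, 7.60 and 10.4 CPM in SE 3, 4 and 5 (0.14 ± 0.19, edgeR adjusted p = 0.794). Of its exonic bases 17.4% overlap an antisense gene, so its level is uncertain. E2f1, the transcription factor that switches on replication genes, was at 18.0, 17.3, 21.2, 19.5 and 17.5 CPM in SA, at 22.9 and 21.8 CPM in SE 1 and 2, and at 12.7, 13.8 and 13.3 CPM in SE 3, 4 and 5 (0.14 ± 0.172, edgeR adjusted p = 0.768).

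Of the mitosis genes, the 25 log2 fold changes ranged from 0.27 to 0.61, with a median of 0.42. The master genes came first. Cdk1, the kinase that starts mitosis, was at 34.5, 35.9, 52.5, 31.7 and 31.0 CPM in SA, at 36.5 and 51.5 CPM in SE 1 and 2, and at 14.6, 17.2 and 16.9 CPM in SE 3, 4 and 5. SA 3 and SE 2 stood together at the top and the 3 SE libraries at the bottom, so that the log2 fold change of 0.44 carried a standard error of 0.325 (edgeR adjusted p = 0.623). Ccnb1, its cyclin B1 partner, was at 22.2, 24.1, 29.8, 23.6 and 22.4 CPM in SA, at 29.2 and 31.0 CPM in SE 1 and 2, and at 10.5, 15.9 and 10.3 CPM in SE 3, 4 and 5 (0.33 ± 0.291, edgeR adjusted p = 0.678). Leaving out SE 3, 4 and 5 put it at -0.30 ± 0.123 (edgeR adjusted p = 0.492). Ccnb2 and Ccna2, for cyclins B2 and A2, had log2 fold changes of 0.48 ± 0.287 and 0.42 ± 0.319.

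Foxm1, the transcription factor of mitotic genes, was at 23.8, 26.6, 30.8, 28.6 and 24.5 CPM in SA, at 29.5 and 34.0 CPM in SE 1 and 2, and at 13.0, 13.4 and 11.8 CPM in SE 3, 4 and 5 (log2 fold change 0.40 ± 0.281, edgeR adjusted p = 0.604). The lowest of the other 7 libraries was 1.77-fold above the highest of these 3, a gap among the widest of the 40 genes. Melk, a kinase gene used as a marker of dividing progenitors, had the widest, at 1.87-fold, with 12 to 17.8 CPM in SA, 13.8 and 15.2 CPM in SE 1 and 2, and 5.56, 6.46 and 5.30 CPM in SE 3, 4 and 5. Its log2 fold change was 0.57 ± 0.296 (edgeR adjusted p = 0.497).

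Mki67, the Ki-67 protein gene that pathologists use to count dividing cells, gave the most reads of the list. It was at 138, 185, 216, 179 and 160 CPM in SA, at 173 and 202 CPM in SE 1 and 2, and at 89.7, 96.7 and 88.8 CPM in SE 3, 4 and 5. The mean was 176 ± 29.1 CPM over the SA and 130 ± 53.4 CPM over the SE libraries (SD, n = 5), a log2 fold change of 0.43 ± 0.235 (edgeR adjusted p = 0.509). With SE 1 and 2 as the only SE libraries it was -0.09 ± 0.146, and both lay inside the SA range. Top2a, the topoisomerase that untangles chromosomes, was at 105, 130, 167, 130 and 114 CPM in SA, at 127 and 151 CPM in SE 1 and 2, and at 62.9, 76.8 and 63.9 CPM in SE 3, 4 and 5. Its log2 fold change was 0.42 ± 0.242 (edgeR adjusted p = 0.538), and -0.10 ± 0.154 without these 3 libraries.

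The mitotic kinases held the largest difference between groups. Bub1, of the spindle checkpoint, which holds cells until every chromosome is attached, had the largest log2 fold change of the list at 0.61 ± 0.335 (edgeR adjusted p = 0.523). It was at 9.70, 16.6, 17.4, 14.5 and 12.2 CPM in SA, at 13.2 and 16.7 CPM in SE 1 and 2, and at 4.36, 5.72 and 6.35 CPM in SE 3, 4 and 5, so that SA 1 lay lower than the other SA libraries. Plk1, the polo-like kinase, was at 11.0, 14.4, 19.0, 13.5 and 12.7 CPM in SA, at 12.3 and 17 CPM in SE 1 and 2, and at 6.19, 5.49 and 5.94 CPM in SE 3, 4 and 5 (0.59 ± 0.304, edgeR adjusted p = 0.493). Of the exonic bases of Plk1, 7.09% overlap an antisense gene.

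Ttk, the checkpoint kinase MPS1, had the smallest p of the 40 genes and its own pattern. It was at 24.4, 26.9, 25, 20.4 and 19.2 CPM in SA, at 19.0 and 22.7 CPM in SE 1 and 2, and at 14.6, 18.6 and 14.6 CPM in SE 3, 4 and 5. SE 4 came within 1.02-fold of SE 1, the lowest of the other 7 libraries, and SA 2, not SA 3, was highest. The mean was 23.2 ± 3.24 CPM over the SA and 17.9 ± 3.4 CPM over the SE libraries (SD, n = 5), and the log2 fold change was 0.37 ± 0.139 (edgeR unadjusted p = 0.0204, adjusted p = 0.368). It was the single member that stayed positive without SE 3, 4 and 5, at 0.16 ± 0.144 (edgeR adjusted p = 0.788). The aurora kinase genes Aurka and Aurkb had log2 fold changes of 0.27 ± 0.297 and 0.43 ± 0.295, Birc5, which encodes survivin, the partner of aurora B, 0.36 ± 0.343, and Bub1b 0.32 ± 0.255.

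Cdc20, the activator of the anaphase-promoting complex, was at 23.6, 22.1, 31.4, 22.8 and 20.6 CPM in SA, at 19.8 and 29.5 CPM in SE 1 and 2, and at 10.3, 12.3 and 8.73 CPM in SE 3, 4 and 5. Its mean was 24.1 ± 4.21 CPM over the SA and 16.1 ± 8.61 CPM over the SE libraries (SD, n = 5), a log2 fold change of 0.58 ± 0.289 (edgeR adjusted p = 0.486) that turned to -0.03 ± 0.181 without SE 3, 4 and 5. Ube2c, the ubiquitin-conjugating enzyme of that complex, had 0.42 ± 0.293. Its level is uncertain, since 22.8% of its exonic bases overlap an antisense gene.

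The spindle and cytokinesis genes all had SE 3, 4 and 5 as their lowest libraries. Log2 fold changes were 0.53 for Tpx2, which builds microtubules around chromosomes, 0.46 for Kif11, the motor that pushes the spindle poles apart, 0.40 for Kif23 and 0.38 for Kif20a, motors of the cleavage furrow, 0.39 for Prc1, which bundles the central spindle, and 0.39 for Nusap1. The kinetochore genes Cenpe and Cenpf stood at 0.46 and 0.45. Adjusted edgeR p-values of these 8 genes lay between 0.491 and 0.667. All 8 were negative without SE 3, 4 and 5, from -0.30 (Kif20a) to -0.02 (Cenpe). Antisense genes overlap 29.3% of the exonic bases of Kif20a and 11.1% of those of Prc1, so both levels are uncertain. Ccna2, above, has 12.5%.

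**Figure D2:**
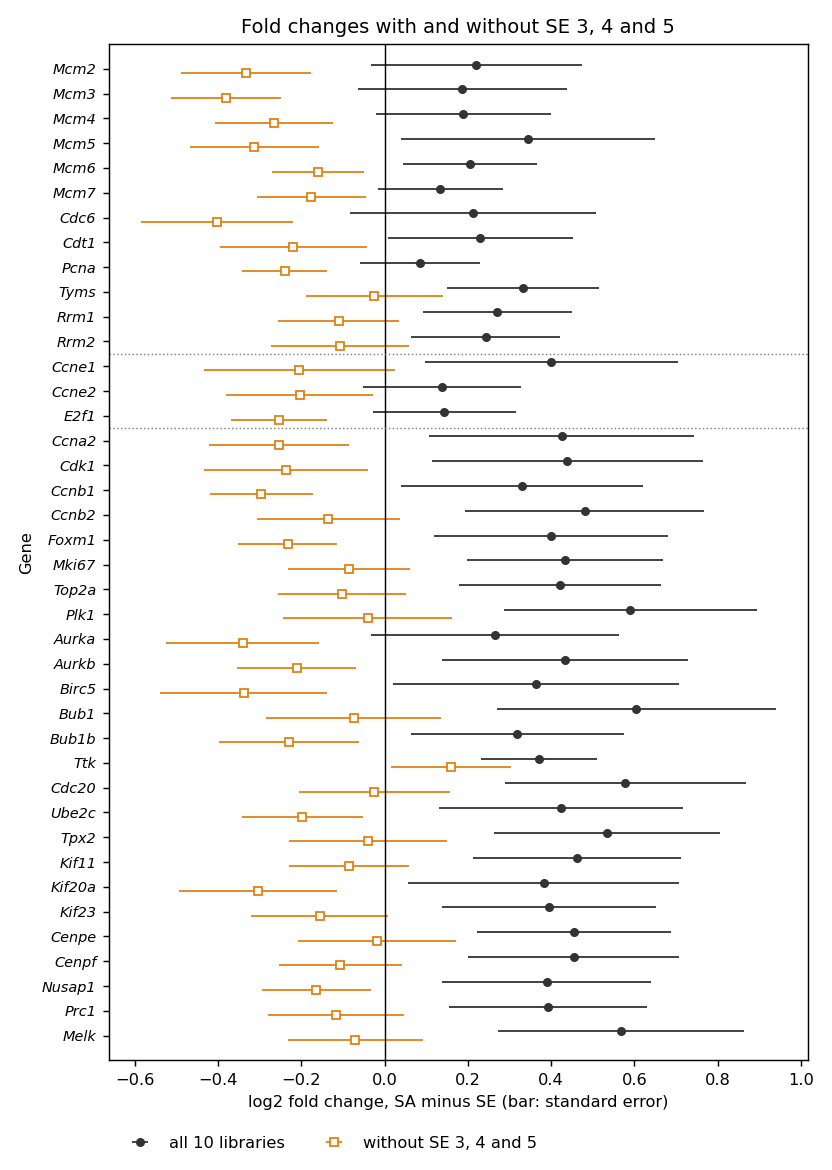
Log2 fold change of each gene, SA minus SE, with its standard error as the bar, from all 10 libraries (filled circles) and without SE 3, 4 and 5 (open squares). All 40 circles lie right of 0 and 39 of the 40 squares lie left of it, with Ttk the exception.

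Mitosis genes stood further from the other libraries in SE 3, 4 and 5 than replication genes did. The mean log2 CPM of the 25 mitosis genes was 4.66, 4.91, 5.25, 4.82 and 4.69 in SA 1 to 5, 4.92 and 5.15 in SE 1 and 2, and 3.77, 3.98 and 3.76 in SE 3, 4 and 5. For the 12 replication genes it was 5.20, 5.17, 5.58, 5.24 and 5.08 in SA, 5.33 and 5.64 in SE 1 and 2, and 4.56, 4.69 and 4.59 in SE 3, 4 and 5. The difference of these means, mitosis minus replication, was -0.79, -0.71 and -0.84 in SE 3, 4 and 5 and lay between -0.54 (SA 1) and -0.26 (SA 2) in the other 7. By group it was -0.39 ± 0.105 over SA and -0.65 ± 0.186 over SE libraries (SD, n = 5), and the gap between the groups of 0.26 shrank to 0.07 without SE 3, 4 and 5. With replication counted as Mcm2 to Mcm7, Pcna, Tyms and Rrm2 alone, the gap was 0.27. In the median gene, the highest library exceeded the lowest 3.15-fold for mitosis and 2.13-fold for replication. The score carries no test, because the members were chosen with earlier results of these data known.

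**Figure D3:**
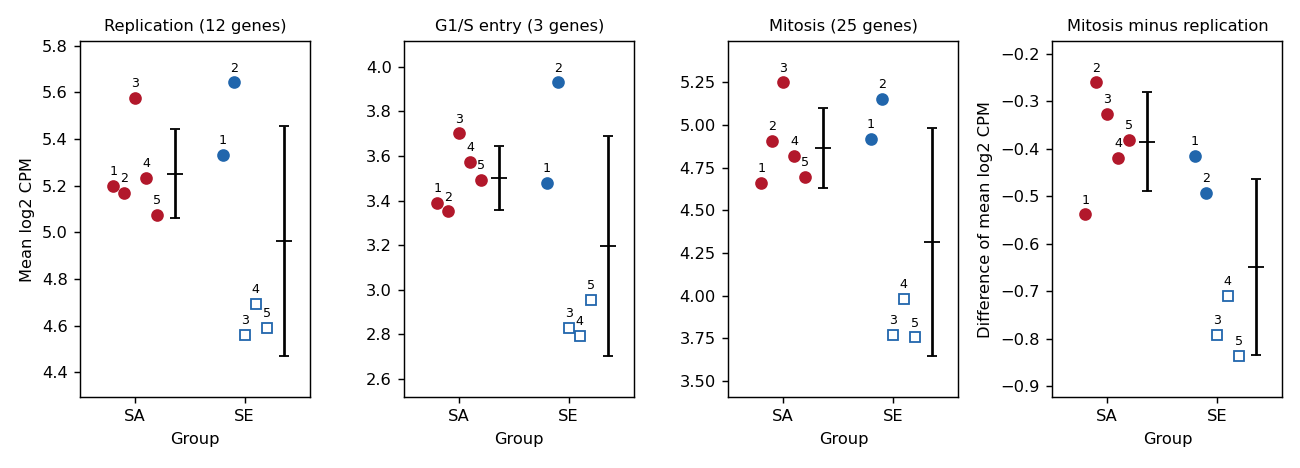
Mean log2 CPM of the replication, G1/S entry and mitosis genes in each library, and the mitosis mean minus the replication mean. Points are libraries labelled by number, open squares are SE 3, 4 and 5, and bars give the group mean ± SD; these 3 squares lie below all other libraries in each panel.

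SA 3 and SE 2 had the 2 highest means in both sets, in opposite order. Among mitosis genes SA 3 was in the top 2 for 25 of 25 and SE 2 for 22 of 25, and among replication genes both were in the top 2 for 12 of 12. SA 3 had the highest mitosis mean, at 5.25 against 5.15 in SE 2, and SE 2 the highest replication mean, at 5.64 against 5.58 in SA 3. SA 1 lay at the low end of the mitosis means of the 7 other libraries, at 4.66, and SA 5 at the low end of their replication means, at 5.08.

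Further genes of the same pathways were mostly positive too. Of 38 other replication genes, 0 passed the test, against 0.0769% of all genes, and 0 had an unadjusted p under 0.05, against 11.1%. With 34 positive (89.5%, against 48.3% of all genes), their median log2 fold change was 0.20. In 32 of them (84.2%, against 11.3% of all genes) SE 3, 4 and 5 were the lowest libraries. The smallest p-values were those of Pola1 (0.32 ± 0.177), Rfc2 (0.22 ± 0.127) and Dnmt1 (0.15 ± 0.0908), for DNA polymerase alpha, the clamp loader and the maintenance DNA methyltransferase (edgeR adjusted p = 0.52, 0.545 and 0.566). Of the exonic bases of Rfc2, 15.1% overlap an antisense gene. Of 55 other mitosis genes, 0 passed (4 at an unadjusted p under 0.05, against 11.1% of all genes), 54 were positive with a median of 0.38, and SE 3, 4 and 5 were lowest in 52 (94.5%). Plk4, the kinase of centriole duplication, was the negative exception, at -0.16 ± 0.402 and a low level of 0.411 to 1.63 CPM. Kif18a (0.47 ± 0.191), Cdca5 (0.61 ± 0.252) and Espl1 (0.48 ± 0.202), for a chromosome-aligning motor, sororin and separase, had the smallest p-values there (edgeR adjusted p = 0.408, 0.411 and 0.419). Without SE 3, 4 and 5 the medians of both lists were negative, at -0.17 and -0.14, with 1 of 38 and 7 of 55 genes positive. These libraries were singled out on all genes. Counts of listed genes lowest or highest in them, here and below, are therefore descriptions and were not tested.

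The 24 G1 cyclins, cyclin-dependent kinases and E2F regulators varied less, with the highest library exceeding the lowest 1.40-fold in the median gene. They had a median log2 fold change of 0.06, with 18 positive (75.0%, against 48.3% of all genes) and 6 negative. Of the 24, 0 passed the test, against 0.0769% of all genes. An unadjusted p under 0.05 was found for 1 of the 24, against 11.1% of all genes. SE 3, 4 and 5 were the lowest libraries for 8 of them, 33.3% against 11.3% of all genes. Named because of their values, Ccnd1 (cyclin D1) was among these 8, at 61.0, 55.1 and 51.0 CPM in SE 3, 4 and 5 and 75.8 to 120 CPM in the other 7. Cdk6 had the reverse order, at 64.4, 63.6 and 63.2 CPM in those 3 and at most 58.4 CPM in the others. Lin54, a DNA-binding subunit of the DREAM complex, had the smallest p of the list at -0.20 ± 0.072 (edgeR adjusted p = 0.358), followed by the MYB-family gene Mybl2 (0.27 ± 0.155) and the repressor gene E2f8 (0.34 ± 0.209). Antisense genes overlap 23.4% of the exonic bases of Ccnd1 and 11.2% of those of E2f8, so both levels are uncertain.

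Of the cell cycle inhibitors, 19 of 20 were tested and Cdkn2a, with at most 10 reads in a library, was not. Their median log2 fold change was -0.05, with 8 positive (42.1%, against 48.3% of all genes) and 11 negative. Of the 19, 0 passed the test, against 0.0769% of all genes, and 4 had an unadjusted p under 0.05, against 11.1%. In 5 of the 19 SE 3, 4 and 5 were the highest libraries, against 13.8% of all genes, and in 3 the lowest, against 11.3%. Cdkn1b, which encodes the inhibitor p27 and is named because of its values, was at 151, 155 and 162 CPM in SE 3, 4 and 5 and at 86.4 to 113 CPM in the other 7. Cdkn2b, Rbl2, Gadd45a and Btg1 shared that order. Antisense genes overlap 21% of the exonic bases of Rbl2 and 19.1% of those of Gadd45a, so both levels are uncertain. Cdkn2c, for the inhibitor p18, had the opposite order, at 26.9, 24.6 and 27.3 CPM against 47.9 to 61.0 CPM (log2 fold change 0.58 ± 0.203, edgeR adjusted p = 0.344). Gadd45a, a stress gene, had SA and SE ranges that did not overlap, as did 2.05% of all genes. It was at 5.44, 5.41, 6.27, 5.78 and 6.30 CPM in SA and 7.21, 7.91, 9.88, 8.65 and 10.1 CPM in SE. Its log2 fold change was -0.58 ± 0.125, past the threshold in DESeq2 (adjusted p = 0.00296) but not in edgeR (0.121) or limma voom (0.128). DESeq2 called 1.77% of all genes. The log2 fold change of Gadd45a was -0.37 ± 0.147 without SE 3, 4 and 5 (edgeR adjusted p = 0.474). Gadd45g stood at -0.54 ± 0.189 (edgeR adjusted p = 0.344), also without overlap, at 17.2 to 24.6 CPM in SA, 50.9 CPM in SE 2 and 25.1 to 28.2 CPM in the other SE libraries.

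Marker genes of other skin structures moved with the same 3 libraries. Inner root sheath genes, expressed in growing hair follicles, had 9 of 10 members highest in SE 3, 4 and 5, with summed levels of 918, 526 and 2910 CPM there against 101 to 185 CPM in the other 7 (120 to 183 CPM in SA, 101 to 2910 CPM in SE). Krt27 was at 115, 52.7 and 405 CPM in those 3 and at most 8.96 CPM elsewhere. Hair matrix and shaft genes had 10 of 12 tested members highest there, summing to 171, 145 and 368 CPM against 46.8 to 74.8 CPM. Shh, a signal of the hair matrix, was lowest there instead, at 0.089, 0.275 and 0.503 CPM against 0.725 to 2.42 CPM. Its level is uncertain, since its counts are low and 28.3% of its exonic bases overlap an antisense gene. Krt33b, Krt81, Krt86 and Krtap4-1 did not pass the filter on low counts, although they reached 570, 842, 919 and 1669 reads in a single library. The libraries with the lowest levels of cell cycle genes were thus those with the highest levels of hair keratin genes. As SE 3, 4 and 5 were singled out on all genes, these markers included, this is a description and was not tested. Erythroid genes had 6 of 6 members lowest there, at 82.4, 129 and 132 CPM against 246 to 579 CPM. Whether follicle stage, blood content or another difference between these skins accounts for the cell cycle levels was not tested.

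Keratinocyte, connective tissue and immune markers had other orders of libraries. Basal keratinocyte genes, from the layer where epidermal cells divide, had 1 of 8 members highest and 0 of 8 lowest in SE 3, 4 and 5, with summed levels of 10100, 13100 and 10800 CPM there and 7620 to 11600 CPM elsewhere. In suprabasal keratinocyte (8 tested), fibroblast (8) and leukocyte (9) genes none was highest or lowest in those 3 libraries. Adipocyte and skeletal muscle genes had 1 member each lowest there (Retn and Mylpf), and melanocyte genes 2 lowest and 1 highest of 7. Summed leukocyte and lymphocyte markers were 417 to 711 CPM in SA and 370 to 846 CPM in SE, and Trdc, of the T cell receptor delta chain, was the 1 marker that edgeR called, at 0.73 ± 0.102 (adjusted p = 0.022). DESeq2, which called 1.77% of all genes, also called, among others, Cd3d (adjusted p = 0.00121), Ivl (6.2e-05), 7 inner root sheath genes and 6 hair matrix and shaft genes. Of the marker genes under the filter, Flg and Cd79a had at most 2 and 13 reads in any library.

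**Figure D4:**
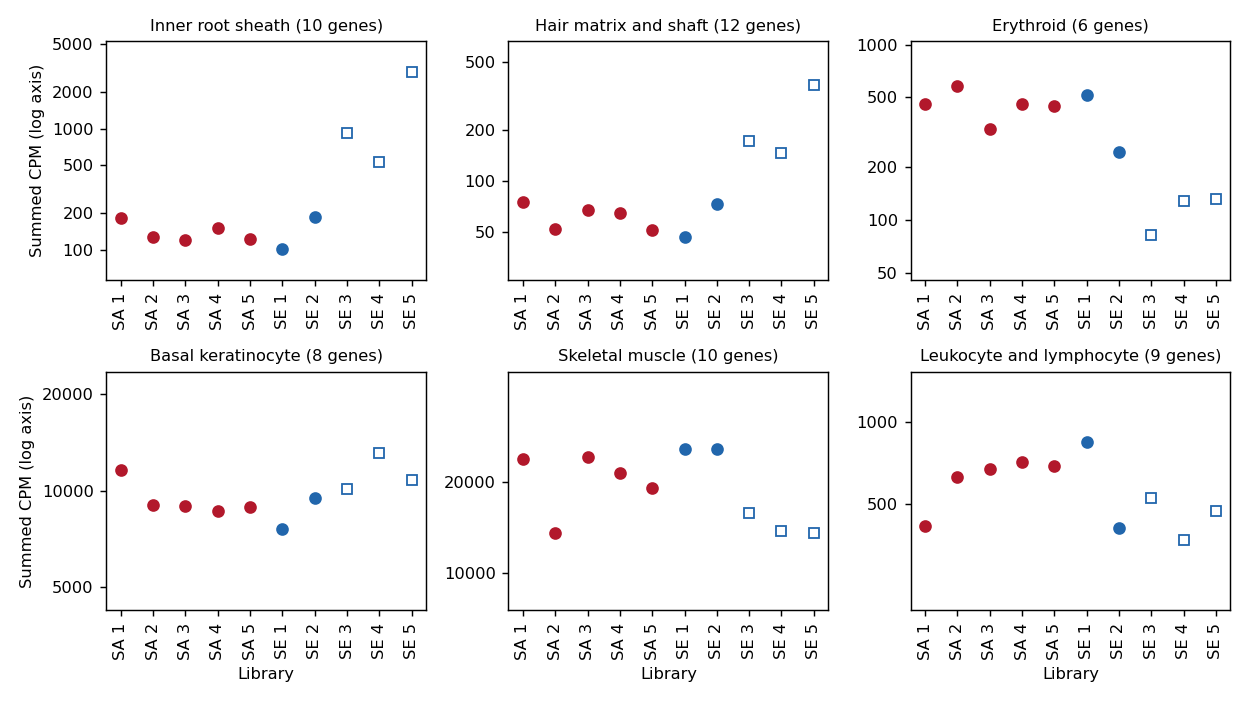
Summed CPM of marker genes in each library on a log axis, for 6 of the marker lists (circles for SA 1 to 5, SE 1 and SE 2, open squares for SE 3, 4 and 5; red for SA, blue for SE). The 3 open squares lie above all other libraries for inner root sheath and hair matrix genes and below them for erythroid genes.

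Relative to transcript length, the listed genes differed widely in level. Divided by the length of their annotated exons, mean levels over the 10 libraries ranged from 1.37 CPM per kilobase (Cdc6) to 28.8 (Pcna). Mki67 (15.2), Mcm6 (15.1), Mcm4 (14.2), Ccnb2 (12.8) and Top2a (12.5) came after Pcna, and differences among these neighbours were not tested. Over the libraries Mki67 ranged from 8.83 to 21.5 and Top2a from 6.98 to 18.6 CPM per kilobase. The genes vary together over the same libraries, so overlapping ranges do not show equal levels. The MCM subunits, which join in equal numbers in the helicase, ranged from 5.52 (Mcm2) to 15.1 (Mcm6). The exon length counts all annotated isoforms of a gene, so a gene with long minor isoforms reads low. Mki67 (ENSMUSG00000031004) lies on chromosome 7, 135689784 to 135716361 in GRCm38, Top2a (ENSMUSG00000020914) on chromosome 11, 98992943 to 99024189, and Ttk (ENSMUSG00000038379) on chromosome 9, 83834689 to 83872389. Pcna (ENSMUSG00000027342) lies on chromosome 2, 132249162 to 132253314, and Cdk1 (ENSMUSG00000019942) on chromosome 10, 69335146 to 69352938. All are protein-coding genes.

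In the authors' deposited table of SA and SE, 0 of the 40 genes had an adjusted p under 0.05, against 1.15% of the 18651 genes with one. An unadjusted p under 0.05 was listed in the authors' deposited table for 5 of the 40, against 7.72% of all genes with a p. The log2 fold changes in the authors' deposited table had the same sign as those from edgeR for all 40, from 0.07 to 0.35 with a median of 0.22. The edgeR median was 0.39. Whether both were estimated in the same way was not tested, so only their signs are compared. Adjusted p-values in the authors' deposited table ran from 0.262 to 0.872, and the median log2 fold change was 0.27 for mitosis and 0.15 for replication genes. The header does not say which group is the numerator.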

How the data were processed

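Whole skin RNA was sequenced in 5 SA and 5 SE libraries, grouped by sample title. The authors deposited raw counts of reads for each Ensembl gene. The submitters' processing notes name STAR 2.4.2a, HTSeq 0.6.1p1 and SAMtools, and the builds GRCm38 and mm10. No source used here gives the annotation release, counting mode or strandedness. The 5 rows that name no gene held 30.5% to 34.6% of listed reads and were left out. The authors' deposited comparison table, per its file header, holds mean normalized counts (a signal), log2 fold changes with standard errors, a Wald statistic (a score) and p-values. It served for gene symbols and is quoted only by name.

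The main test was run in R 4.3.3 with edgeR 4.0.16. Genes passed filterByExpr (minimum count 10), which left 16909 of 46078, libraries were scaled with TMM, and SA was compared with SE by edgeR's quasi-likelihood test (two-sided, no covariates), with Benjamini-Hochberg adjustment over all genes tested and a threshold of 0.05. All 40 members passed the filter. Fold changes use edgeR's default prior count and mean log2 CPM a prior count of 2. Alternatives used DESeq2 1.42.0, limma 3.58.1 (voom), other scalings and filters, a replicate block and the omission of libraries. The script was tested on simulated data. Replicates within a group differed by more than sampling noise (chi-square per degree of freedom 5.1 to 83.9). The members, lists and role groups were chosen with earlier results of these data known. All 40 members could be named; libraries are given singly for 16 fixed members, members past the threshold and the 2 with the smallest p per role, and also for Bub1 and Melk, chosen by their values. Of other lists, called genes and the 3 with the smallest p were named, and other names are marked as chosen by value; of the marker lists, those with a result beside the members are named. Exon lengths and overlaps came from GENCODE M21 and promoter sequences from RefSeq (GRCm38.p6), matched by symbol. Krt85, a marker, was not analysed here.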

Additional observations from a re-analysis of the deposited data

Results flagged for a closer look

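In 9 of 90 sets of 5 libraries checked (the 40 genes and 5 list scores in each group), the extreme library lay far from the rest by Dixon's criterion (gap over range above 0.71). Chance alone flags about 5% of such sets, and the genes vary together, so the sets are not independent. In 8 of the 9 the library was SA 3, above the other SA libraries. It stood at 68.6 CPM for Mcm4 (next 53.2), 90.7 for Mcm6 (next 73.9), 10.3 for Cdc6 (next 7.27) and 52.5 for Cdk1 (next 35.9). The further values were 29.8 CPM for Ccnb1 (next 24.1), 31.2 for Ccnb2 (next 22.3), 23.9 for Aurkb (next 18.0) and 31.4 for Cdc20 (next 23.6). In SE skin, SE 2 stood at 36.1 CPM for Tyms, with the next library at 22.9 and the lowest at 17.9.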

How the results depend on the processing

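Counts of members past the threshold and directions changed with libraries rather than with the software. With RLE scaling, library totals, DESeq2, limma voom, either other low-count filter or the replicate block, 40 of 40 members stayed positive and 0 were called, with lowest adjusted p-values of 0.245 to 0.56. Leaving out single libraries also kept 40 of 40 positive, and members called ranged from 0 to 1, the 1 being Tyms without SE 2 (0.56). Genes called over all tested ranged from 7 to 225 without 1 library, with 225 without SE 1 and 152 without SE 2, against 13 with all and 346 with DESeq2.

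Without SE 3, 4 and 5, 41 genes were called, 1 of 40 members was positive, and medians were -0.19 for all members, -0.23 for replication and -0.14 for mitosis (-0.135 before rounding), with a mitosis minus replication gap of 0.07 (0.069). Log2 fold changes that turned negative were, for replication, Mcm2 -0.33, Mcm3 -0.38, Mcm4 -0.27, Mcm5 -0.31, Mcm6 -0.16, Mcm7 -0.18, Cdc6 -0.40, Cdt1 -0.22, Pcna -0.24, Tyms -0.025, Rrm1 -0.11, Rrm2 -0.11, for G1/S entry, Ccne1 -0.20, Ccne2 -0.20, E2f1 -0.25, and for mitosis, Ccna2 -0.25, Cdk1 -0.24, Ccnb1 -0.30, Ccnb2 -0.14, Foxm1 -0.23, Mki67 -0.085, Top2a -0.10, Plk1 -0.041, Aurka -0.34, Aurkb -0.21, Birc5 -0.34, Bub1 -0.074, Bub1b -0.23, Cdc20 -0.025, Ube2c -0.20, Tpx2 -0.04, Kif11 -0.086, Kif20a -0.30, Kif23 -0.16, Cenpe -0.019, Cenpf -0.11, Nusap1 -0.16, Prc1 -0.12, Melk -0.07. The cause was not tested. Same-numbered SA and SE libraries showed no strong shared deviation (correlations over genes of -0.262 to 0.072). These values cannot exclude a weak pairing, and the labels do not say whether the numbers pair samples. The replicate block called 10 genes, and under it the median over members was 0.49. The members had 66 reads or more per library, and what depth limits was not tested.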

Other observations

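The same motifs were searched in promoters of pathway genes outside the 40. CHR letters were found in 34 of 46 promoters of other mitosis genes with a RefSeq window (73.9%) and in 8 of 29 promoters of other replication genes (27.6%), against 16.9% of the genes tested. CHR letters with a CCAAT box were found in 25 of 46 other mitosis promoters (54.3%) and in 4 of 29 other replication promoters, against 7.02% of the genes tested. E2F letters were found in 5 of 46 and 10 of 29 of these, and in 8 of 18 promoters of the G1 cyclins, cyclin-dependent kinases and E2F regulators, against 4.27% of the genes tested. Among the inhibitors, CHR letters were found in 2 of 16 promoters and E2F letters in 2 of 16. A CCAAT box was found in 12 of these 16 (75.0%), against 42.0% of the genes tested.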
